A study of Mus musculus with 2 samples.

Results

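Spiral ganglion and pan-neuronal markers were followed in cochlear RNA of mice 3 hours after noise. The set holds 10 genes: Nefl, Nefm, Nefh, Prph and Ina, which encode the neuronal intermediate filaments, Tubb3, Snap25, Calb2, Pou4f1 and Slc17a7. They were taken by name among the 37067 gene names on the array, and 21 probes of 60 bases carried these names. All 10 genes were measured, which means that at least 1 probe was well above background on both arrays, as were 26528 genes in all. The rule used gene names and no measured value, but the names were chosen with earlier results of these data known.

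The noise sample was cochlear tissue of C57BL/6 mice, an inbred strain, that were female and 7 weeks old, had heard intense noise for 2 hours and were dissected 3 hours later. The baseline sample was cochlear tissue of female C57BL/6 mice of the same age without noise exposure. Each sample was read on 1 Agilent 1-colour array, and the labels do not give how many mice stood behind it. With 1 array per group there was no replicate check, no p-value was computed, and every difference is between 2 arrays. In whole tissue, fewer neurons and less RNA per neuron cannot be told apart.

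Spiral ganglion neurons carry sound information from hair cells to the brainstem. Type I neurons are thick, myelinated and contact inner hair cells, and the few type II neurons are thin, unmyelinated and contact outer hair cells. Neurofilaments fill the axons of myelinated neurons and set their calibre, whereas peripherin (Prph) marks type II neurons in the adult ganglion and is also made by autonomic and somatosensory neurons. Their messages are read here from all neural tissue in the preparation, since none of the 10 genes is made by spiral ganglion neurons alone.

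The probes below are shown because the results turn on how probes of the same gene compare. They are a Nefm probe that stood apart from the other Nefm probes, both Prph probes, which differed, both measured Calb2 probes, which gave nearly equal ratios, and a Snap25 probe. They were chosen after their letters and values had been seen, each has at least 1 reading frame without a stop codon before its last codon, and they were not matched to a protein sequence. Capitals mark a final TGA, a stop codon in its frame.
Nefm, chr14:68738193-68738252, minus strand: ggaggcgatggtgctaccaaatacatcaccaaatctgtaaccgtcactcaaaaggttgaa
Prph, chr15:98887297-98887356, plus strand: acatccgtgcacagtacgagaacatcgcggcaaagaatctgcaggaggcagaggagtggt
Prph, chr15:98889042-98889101, plus strand: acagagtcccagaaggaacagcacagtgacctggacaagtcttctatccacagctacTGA
Calb2, chr8:112667073-112669583, minus strand: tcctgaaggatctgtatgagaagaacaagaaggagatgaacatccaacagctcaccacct
Calb2, chr8:112678555-112678614, minus strand: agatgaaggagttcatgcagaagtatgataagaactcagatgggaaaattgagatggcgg
Snap25, chr2:136595900-136599679, plus strand: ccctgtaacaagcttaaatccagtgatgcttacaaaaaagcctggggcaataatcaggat

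Coordinates are on mm9, as the scanner files give them. The first Calb2 probe spans 2511 bases of genome and the Snap25 probe 3780, more than the 60 bases of a probe, so both bridge a gap in the genomic sequence. Exon and untranslated-region annotation of mm9 was not used here. The letters AATAAA, the usual polyadenylation signal, were searched on the strand of the probe and stood in 3 of the 21 probes, 2 of Nefm and 1 of Nefh, against 9.77% of the 56590 probes compared. A match describes the letters only.

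No neuronal marker was past 2-fold in either direction, as against 1.86% of all measured genes. Of the 10 genes, 6 had a log2 ratio (noise minus baseline, each array scaled to its 75th percentile) below 0, beside 52.5% of all genes, and 4 had a ratio above 0. The genes below 0 were Slc17a7, Ina, Tubb3, Nefl, Snap25 and Nefh, and those above 0 were Pou4f1, Prph, Nefm and Calb2. The median was -0.14, against -0.01 over all measured genes, and it was 0.08 with spike-in scaling, which aligns the arrays on added control RNAs and moved the median of all genes to 0.21. Slc17a7 and Ina were at least 20% lower (2 genes of 10, beside 14.1% of all genes), and Pou4f1 was at least 25% higher (1 gene, beside 10.2%). Tubb3, at 1.24-fold lower, lay just outside. With spike-in scaling neither Slc17a7 nor Ina passed this rule, and Pou4f1, Prph, Nefm and Calb2 were at least 25% higher, which is 4 of 10 beside 31.3% of all genes under that scaling.

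**Figure D1:**
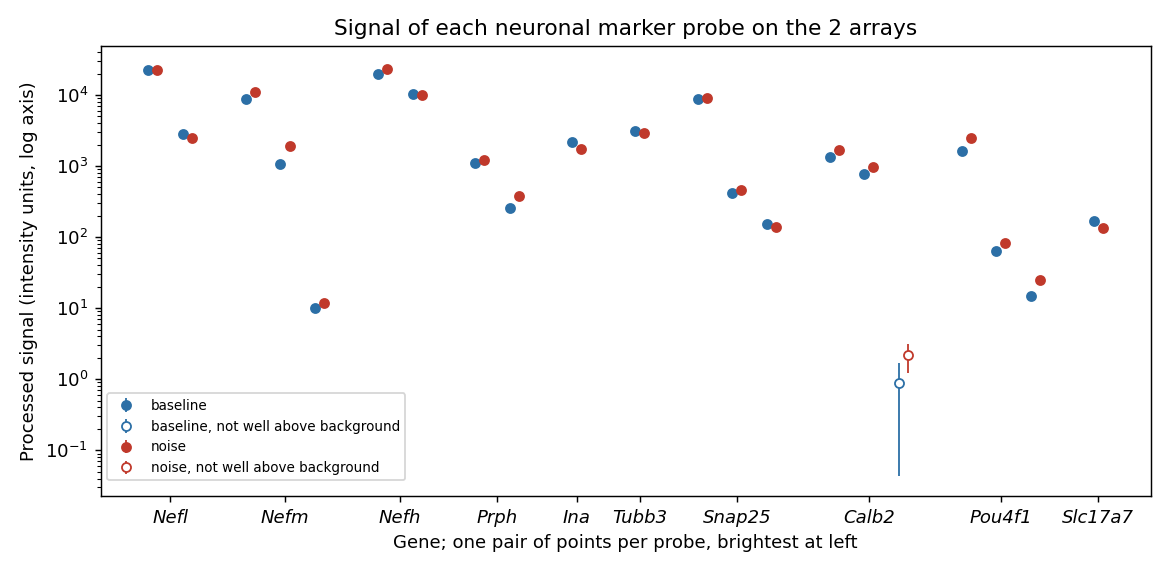
Processed signal (intensity units, log axis) of every probe of the 10 neuronal markers on the baseline (blue) and noise (red) arrays, before scaling; bars are the scanner software's error of the spot, the lower bar of the dim baseline Calb2 spot is cut short, and open points were not well above background. The measured probes run from 10.1 for the dimmest Nefm probe at baseline to 22914 for the brightest Nefh probe after noise, and the open Calb2 points lie below them at 0.875 and 2.16.

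Signals below are processed signals in intensity units before scaling, with the error that the scanner software gave the spot. The noise array was brighter, with a 75th percentile of 316 against 278, so a log2 ratio is the difference after each array's 75th percentile was subtracted on the log2 scale. The error of the log2 ratio of a measured marker probe from these spot errors was between 0.20 and 0.28. For most of these probes it was 0.20, because the spot error was a near-constant share of the signal. Each marker probe had 1 spot per array, so these errors are not a spread between repeat spots. Where a probe had repeat spots, their median SD in log2 signal was 0.046 after noise and 0.051 at baseline. Different probes of a gene had a pooled SD of 0.27 in log2 ratio over 9348 genes, and 6 of the 10 markers lay within that SD of 0. Of the 20 measured marker probes, 4 lay more than 2 errors from 0, beside 15.2% of all measured probes. These were 2 higher probes, of Nefm and Pou4f1, beside 6.72% of all probes, and the 2 lower probes of Ina and Slc17a7, beside 8.46%. A further 10 lay within 1 error of 0. Errors from spots and probes are technical and leave out the spread between mice.

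The 3 neurofilament triplet genes gave ratios on both sides of 0. Nefl encodes the light chain, the core on which neurofilaments assemble. Its brighter probe read 22484 ± 2248 after noise and 22215 ± 2222 at baseline, and its other probe 2488 ± 249 and 2830 ± 283. Both ratios were below 0, at -0.17 and -0.37, and the gene stood at -0.27, or 1.20-fold lower. Nefh encodes the heavy chain, whose tail is phosphorylated in mature axons. Its probes read 22914 ± 2291 after noise against 19986 ± 1999, and 9977 ± 998 against 10468 ± 1047. After scaling these gave 0.01 and -0.25, on both sides of 0, with -0.12 for the gene. Taken from its brightest probe Nefh was at 0.01, and spike-in scaling put it at 0.10.

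Nefm, the medium chain, was higher on the noise array with each of its 3 probes, but by unequal amounts. The brightest probe, at chr14:68737598-68737657, read 11008 ± 1101 after noise and 8784 ± 878 at baseline, a log2 ratio of 0.14. The dim probe at chr14:68737367-68737426 read 11.9 ± 1.58 and 10.1 ± 1.43, a ratio of 0.06. The probe printed above read 1913 ± 191 after noise and 1053 ± 105 at baseline, a ratio of 0.68 or 1.60-fold, and was the marker probe farthest from 0 in units of its error (3.32). Both probes near 0 hold AATAAA and the printed probe does not. A range of 0.62 or more between probes was found for 19.6% of the 2416 genes with 3 measured probes. The gene value of 0.14 is that of the brightest probe, and it was 0.41 when a stricter filter, at 3 times the lowest signal well above background, left out the dim probe.

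**Figure D2:**
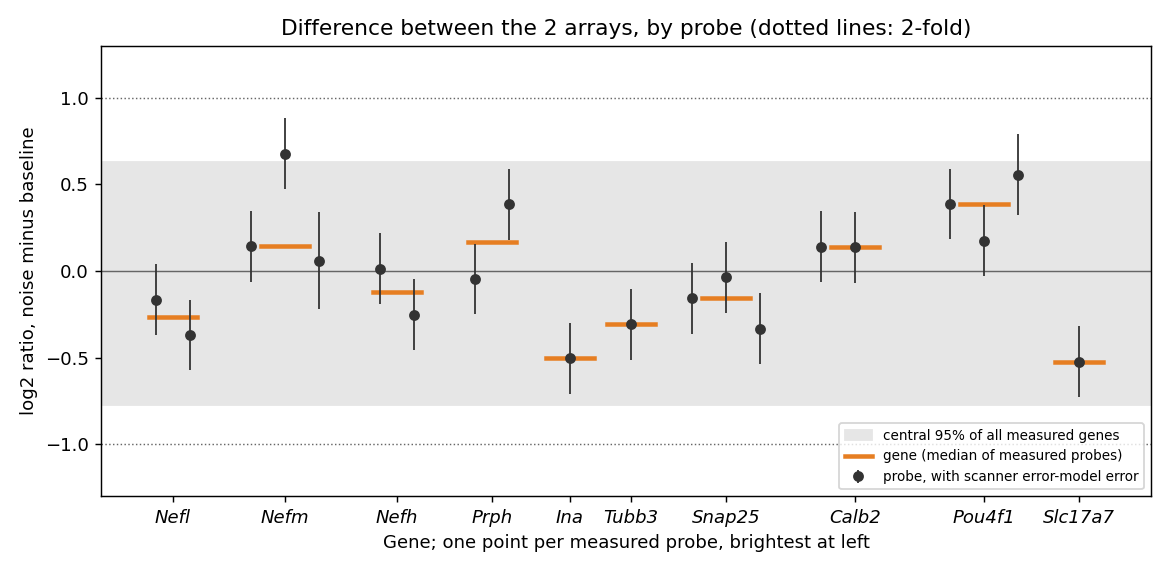
Log2 ratio (noise minus baseline, 75th percentile scaling) of each measured probe with its scanner error-model error, the gene value (orange, median of measured probes) and the central 95% of all measured genes (grey, -0.77 to 0.63); dotted lines mark 2-fold. All 10 gene values lie inside the grey band, and 1 Nefm probe (0.68) lies above it.

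Prph and Ina encode the other neuronal filaments, and they stood on opposite sides of 0. The brighter Prph probe, which ends in TGA, read 1196 ± 120 after noise and 1088 ± 109 at baseline (log2 ratio -0.05). The other Prph probe read 377 ± 37.7 and 254 ± 25.4 (0.38). The gene value of 0.17 was thus the middle of probes with different signs, and it was -0.05 with the brightest probe alone. A range of 0.43 or more was found for 20.5% of the 5624 genes with 2 measured probes. Ina, alpha-internexin, had 1 probe, with 1744 ± 174 after noise and 2177 ± 218 at baseline. Its ratio of -0.50, or 1.42-fold lower, was below that of 93.3% of measured genes and past 2 errors. Prph exceeded Ina by 0.67 in log2 ratio, and Nefm exceeded Nefl by 0.41.

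Tubb3 encodes the neuronal beta-tubulin used to stain ganglion neurons. Its single probe read 2893 ± 289 after noise and 3153 ± 315 at baseline, a ratio of -0.31. Snap25 encodes a SNARE protein of the presynaptic membrane, where it drives vesicle fusion. Its brightest probe read 9036 ± 904 and 8876 ± 888 (-0.16), the probe printed above 458 ± 45.8 and 414 ± 41.4 (-0.04), and the dimmest 138 ± 13.8 and 153 ± 15.3 (-0.33). All 3 Snap25 ratios were below 0, and the gene value of -0.16 was 0.06 with spike-in scaling. Slc17a7 encodes VGLUT1, which loads glutamate into synaptic vesicles. Its single probe read 133 ± 13.4 after noise and 169 ± 16.9 at baseline, and its ratio of -0.52, or 1.44-fold lower, was the lowest of the 10, below that of 93.8% of measured genes.

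Calb2 and Pou4f1 label subsets of neurons. Calb2 encodes calretinin, a calcium-binding protein of the type I neurons with the lowest thresholds, and it is made by hair cells and central neurons as well. The junction-spanning probe read 1691 ± 169 after noise and 1350 ± 135 at baseline, and the other printed probe 963 ± 96.3 and 771 ± 77.1. Their ratios were both 0.14 and both lay within 1 error of 0. The other probe under this name stayed near background on both arrays, at 2.16 ± 0.944 and 0.875 ± 0.878. Pou4f1 encodes a transcription factor of sensory ganglia that is kept in a subset of adult type I neurons. Its brightest probe read 2441 ± 244 after noise and 1643 ± 164 at baseline (0.39), the next 81.9 ± 8.26 and 63.9 ± 6.47 (0.18), and the dimmest 24.5 ± 2.64 and 14.7 ± 1.76 (0.56). Every Pou4f1 probe was higher after noise, and the gene value of 0.39, or 1.31-fold, exceeded that of 92.5% of measured genes. It was 0.06 with the normexp background, a model-based correction with an offset of 50, with which the brightest probe stayed at 0.40 and the dim probes were at 0.04 and 0.06.

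**Figure D3:**
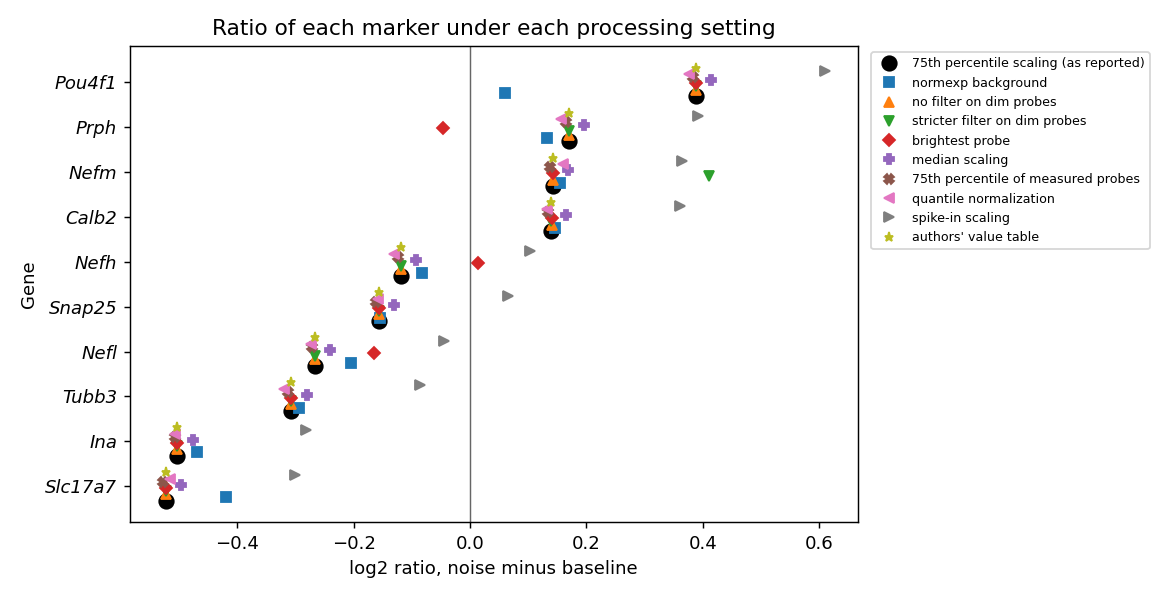
Log2 ratio (noise minus baseline) of each neuronal marker under 75th percentile scaling (black) and 9 other processing settings. Spike-in scaling moved every gene up by the same amount; Slc17a7, Ina, Tubb3 and Nefl were below 0 and Calb2, Nefm and Pou4f1 above 0 under every setting drawn, and Nefh, Snap25 and Prph were not.

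The distance between markers depends less on the scaling than their sign does. Pou4f1 exceeded Slc17a7 by 0.91 in log2 ratio, a 1.88-fold difference in their change, and a scaling that adds a constant to each array leaves this unaltered. It was 0.89 with quantile normalization and 0.48 with the normexp background. The SD of the 10 ratios was 0.31, beside 0.35 over all measured genes. Under 75th percentile scaling and under all 9 alternatives, the same number of markers, 6 of 10, lay below the median of all measured genes. For several alternatives this was fixed in advance. Median scaling, spike-in scaling and the 75th percentile of measured probes only add a constant, and the authors' values are the same signal minus a constant.

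Close relatives of the markers were uneven. Of 17 measured relatives, 9 were below 0 and 8 above, 3 were at least 20% lower and 1 at least 25% higher, with a median of -0.0035. With spike-in scaling 6 were below 0, 1 was at least 20% lower and 5 at least 25% higher, with a median of 0.22. Lowest were Tubb4a, a beta-tubulin of brain and myelinating glia (-0.81), Gfap, the astrocyte filament (-0.53), and Pvalb, a calcium-binding protein of neurons and muscle (-0.35). Highest was Pou4f3, the hair cell relative of Pou4f1 (0.67, at signals of 57.3 and 31.7; 0.23 with the normexp background). The other vesicular glutamate transporter genes were below 0 by less than Slc17a7: Slc17a6 at -0.23 and Slc17a8, which serves inner hair cells, at -0.19. Each had 1 measured probe and lay within 0.27 of 0, the pooled SD between probes of a gene.

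Other pan-neuronal and synaptic genes lay mostly below 0. For comparison, 52.5% of all measured genes were below 0, 14.1% at least 20% lower and 10.2% at least 25% higher. Of 20 other pan-neuronal genes 18 were below 0, with a median of -0.21, 7 were at least 20% lower and none was 25% higher. Scg2, a granin of secretory vesicles, was past 2-fold at -1.11 (signals 874 after noise and 1661 at baseline; -0.89 with spike-in scaling), and it was followed by the endosomal protein gene Nsg2 (-0.48), the RNA-binding protein gene Celf4 (-0.45) and Thy1 (-0.40). Of 19 genes of synaptic vesicle release, to which Snap25 belongs by function, 17 were below 0, with a median of -0.27. In that list 8 were at least 20% lower and 2 at least 25% higher. The active zone gene Rims1 was lowest (-0.93, at signals of 33.5 and 58.1; -0.38 with the normexp background), and the vesicle protein gene Sv2a (-0.50) and the synapsin gene Syn2 (-0.45) were also below 0. Of 19 genes of axonal cytoskeleton and transport 13 were below 0 (median -0.19), with 3 at least 20% lower and none 25% higher: the axon initial segment spectrin gene Sptbn4 (-0.59), the dendritic Map2 (-0.56) and the kinesin gene Kif1a (-0.37). With the brightest probe Map2 was at -0.06 and Kif1a at -0.21, neither 20% lower. In that setting 15 of the 19 genes were below 0, 2 were at least 20% lower and 2 at least 25% higher. With spike-in scaling 10 of 20, 11 of 19 and 6 of 19 genes of these lists were below 0, beside 21.6% of all genes, and 1, 2 and 2 were at least 20% lower, beside 5.76%.

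Further spiral ganglion markers were divided. Of 17 measured genes 9 were below 0 and 8 above, with a median of -0.01, 3 at least 20% lower and 3 at least 25% higher. With spike-in scaling 4 were below 0. Th, tyrosine hydroxylase, which marks type II neurons and also noradrenergic neurons, was past 2-fold at 1.31 (signals of its brighter probe 539 and 277), with probes at 0.78 and 1.85 and 0.51 with the normexp background. The otic factor gene Gata3 was at 0.44, the neurotrophin receptor gene Ngfr, also made by glia, at -0.47, and the neurogenic factor gene Neurod1 at -0.83. Among 12 genes that sensory neurons induce after axon injury, 7 were above 0 and the median was 0.06, with 4 at least 25% higher and 2 at least 20% lower. The stathmin gene Stmn4 was at -0.67 (signals 1819 and 2542). Sprr1a, a growth-associated protein gene, was at 1.60 (signals 89.2 and 25.8), the stress factor gene Atf3 at 1.06 and the neuropeptide gene Npy just past 2-fold (signals 117 and 51.6). The normexp background put these 3 at 0.68, 0.75 and 0.56, under 2-fold, and Npy also fell short of 2-fold with the 75th percentile of measured probes.

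**Figure D4:**
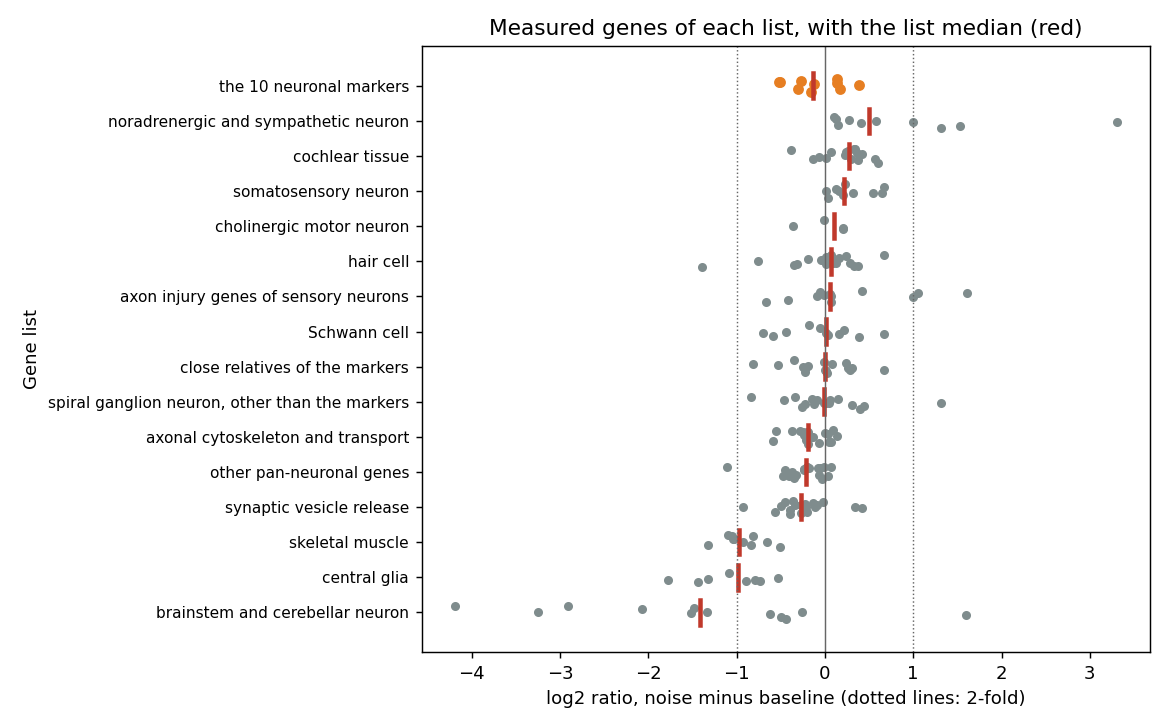
Log2 ratio (noise minus baseline) of each measured gene (points, spread vertically for legibility) in 15 gene lists and of the 10 neuronal markers (orange), with the median of each in red; dotted lines mark 2-fold. The neuronal markers spread around 0, the brainstem and cerebellar neuron, central glia and skeletal muscle lists lie to the left, and the noradrenergic list lies to the right.

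Markers of central neural tissue were mostly lower on the noise array. Their summed level is the sum over genes of the brightest probe, in multiples of the array's 75th percentile. The counts below stand beside 52.5% of all measured genes below 0 and 1.86% past 2-fold in either direction. Brainstem and cerebellar neuron genes summed to 9.26 after noise and 20.7 at baseline, and 11 of 12 measured genes were below 0 (median -1.41). In that list 7 were at least 2-fold lower, the most the glycine receptor gene Glra1 (-4.19) and the GABA and glycine vesicle transporter gene Slc32a1 (-3.25). Gad2, which makes GABA, was at -2.90 (signals 10.3 and 68.1). It was at -1.07 with the normexp background and not measured with the stricter dim-probe filter. The Purkinje cell gene Pcp2 was at 1.60. The glycine transporter gene Slc6a5 was not well above background after noise and at least 45.6-fold lower, and Tph2 was near background on both arrays. Central glia genes summed to 40.0 after noise and 74.2 at baseline. Aldoc gave 31.7 and 59.3 of these sums, and without it the levels were 8.36 and 14.9. All 8 measured central glia genes were below 0 (median -0.99), 4 were at least 2-fold lower, and the oligodendrocyte gene Opalin was well above background at baseline only. With the normexp background the brainstem and cerebellar median was -0.55 and 4 genes were 2-fold lower, and the central glia median was -0.69.

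Markers of somatosensory and noradrenergic neurons were mostly higher after noise, and those of cholinergic motor neurons were divided. The cells that made these messages were not identified. Among all measured genes 52.5% were below 0, 10.2% at least 25% higher and 1.86% past 2-fold in either direction. All 10 measured somatosensory neuron genes were above 0 (median 0.22, summed level 24.5 after noise and 21.4 at baseline), with 3 at least 25% higher: the capsaicin receptor gene Trpv1 (0.67), the nociceptor factor gene Prdm12 (0.65) and the substance P gene Tac1 (0.54). Trpv1 was at 0.14 with the normexp background, Prdm12 at 0.11 and Tac1 at 0.18 without a filter on dim probes, and the count of 3 became 1 without that filter and 8 with spike-in scaling. All 10 measured noradrenergic and sympathetic neuron genes were above 0 (median 0.49, summed level 14.8 after noise and 11.0 at baseline). In that list 4 were at least 2-fold higher, Dbh, which makes noradrenaline, the most (3.31, probes at 2.08 and 4.54), then the autonomic factor gene Phox2a (1.53), Th and Npy, and the noradrenaline transporter gene Slc6a2 was not well above background at baseline and at least 21.2-fold higher after noise. With the normexp background 9 of 10 genes were above 0 in each of these lists, and 1 noradrenergic gene was 2-fold higher. The cholinergic motor neuron list had 2 of 4 measured genes below 0. With the normexp background all 4 were, beside 64.9% of all genes. This list summed to 1.86 after noise and 2.17 at baseline, with Mnx1 near background on both. Isl1, which is also in the spiral ganglion list, gave 1.51 and 1.85 of these sums. Without it the levels were 0.356 after noise and 0.318 at baseline.

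Schwann cells myelinate type I axons, and 5 of 11 of their genes were below 0, beside 52.5% of all measured genes. These Schwann cell genes had a median of 0.01 (-0.05 with the normexp background), with summed levels of 239 after noise and 272 at baseline. Within them the myelin genes Mag (-0.59) and Mbp (-0.44; 0.01 with the brightest probe) were below 0 and the Schwann cell factor gene Egr2 was at 0.67. Mag and Mbp are made by oligodendrocytes too. Hair cell genes had 6 of 19 below 0 (median 0.07, summed levels 83.4 after noise and 92.6 at baseline). With the normexp background 10 of 19 were below 0, beside 64.9% of all genes. Tmc2 was past 2-fold at -1.39 (signals of 8.30 and 19.1), but at -0.38 with the normexp background. Pvalb, which is in that list and is also made by neurons and muscle, gave 42.5 and 54.2 of these sums, and without it the levels were 40.9 after noise and 38.3 at baseline. Skeletal muscle genes summed to 13.6 after noise and 26.2 at baseline, with all 10 below 0 and 5 at least 2-fold lower (myoglobin, Mb, -1.32), or 2 with the normexp background and 1 with spike-in scaling. As reported, 1.86% of all measured genes were past 2-fold in either direction. All 16 cochlear tissue markers were measured on both arrays, with a median of 0.28 and summed levels of 403 after noise and 370 at baseline. Of these genes 13 were above 0, among them Otoa (0.60), Ceacam16 (0.57) and Cldn11 (0.42). The other 3 were below 0, among them Otogl (-0.38) and Otos (-0.14, probes at -0.31 and 0.03). Otos gave 113 and 140 of the cochlear sums, and without it the levels were 290 after noise and 230 at baseline. The part of any of these tissues in the marker ratios was not tested.

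Over all 26528 measured genes, 162 were at least 2-fold higher and 332 at least 2-fold lower after noise, so that 32.8% of genes past 2-fold were higher. That share was 65.4% with spike-in scaling and 43.1% with the normexp background. The share of probes well above background was 75.3% after noise and 75.2% at baseline, and no marker probe was saturated.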

How the data were processed

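Cochlear RNA of 2 samples was read on 1-colour (Cy3) arrays. Per the file headers, the authors' deposited intensity values came from Agilent Feature Extraction 11.5.1.1, which subtracted background, detrended the signal and replaced values near background by a surrogate. Both arrays were on the same slide and in the same scan. The authors' deposited log2 value table equalled log2 of the processed signal minus 8.30 (noise) or 8.12 (baseline) for probes well above background, with no centring per gene, so its scale and direction were those used here. Its medians over non-control probes were -2.80 and -2.78.

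Spots with outlier flags were left out, spots of a probe averaged as log2 values, and the 75th percentile of the array subtracted. A probe was measured where well above background on both arrays, and a gene took the median ratio of its measured probes. Rules of size (2-fold, or 25% higher and its inverse, 20% lower) replaced a test, and the number of arrays limits the precision. Where 1 array was dim, the bound used the higher of that probe's level and the lowest level well above background. All markers and, from each of 15 lists, up to 4 genes by absolute ratio and any past 2-fold could be named, of which some are not reported here; other relatives were named after their values were seen. Members, lists and alternatives were chosen with earlier results of these data known. Gene names are those of the array design. No protein sequences were used here, so the planned placement of probes in proteins and the protein alignment were not run. The gene steps were tested on simulated data. Python 3.11.15, R 4.3.3 and limma 3.58.1 (normexp) were used.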

Additional observations from a re-analysis of the deposited data

How the results depend on the processing

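The 9 alternatives were each applied to the marker results. No marker was past 2-fold in any of them, and the median of the 10 ratios ran from -0.14 to 0.08. With spike-in scaling 4 markers were below 0, beside 21.6% of all genes. In the other alternatives 6 were, beside 48.1% (median scaling) to 64.9% (normexp background) of all genes. The number of markers at least 25% higher was 1 as reported. It was 0 with the normexp background (beside 3.31% of all genes), 2 with the stricter dim-probe filter (9.13%) and 4 with spike-in scaling (31.3%). The number at least 20% lower, 2 as reported, was 0 with spike-in scaling (beside 5.76%). The stricter filter left out the dim Nefm probe, and the normexp background with its offset of 50 drew the dim Pou4f1 probes towards 0; spike-in scaling rests on 8 probes that differed between the arrays by -0.20 to 0.32 before scaling.

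Over all genes, 332 at least 2-fold lower became 74 with the normexp background, 1296 without a filter on dim probes, 206 with the stricter filter and 186 under spike-in scaling, and 162 at least 2-fold higher became 56 (normexp), 672 (no filter) and 351 (spike-in). Genes at least 20% lower were 3728 as reported and 1258, 6380 and 1527 in these 3 settings, genes at least 25% higher 2705 and 877, 4473 and 8312, and genes below 0 were 13932 as reported, 22021 with no filter and 5723 with spike-in scaling. These counts have unlike totals: 37067 genes with no filter, 23208 with the stricter filter and 26528 otherwise. As shares, 52.5% of genes were below 0 as reported, 59.4% with no filter and 21.6% with spike-in scaling. The brainstem and cerebellar neuron median was -1.13 with no filter and -0.56 with the stricter filter, and the skeletal muscle median was -0.70 with the normexp background. No paired analysis was possible because only 1 array stood for each group, which also left no replicate to leave out.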
